A study of Oryctolagus cuniculus with 24 samples.

Results

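Caecal intestinal epithelial cells (IEC) of rabbits that had received ova of the pig whipworm Trichuris suis (TSO) were compared with and without dextran sulphate sodium (DSS). The 6 libraries, IEC of 3 TSO DSS and 3 TSO Water rabbits, were all the IEC libraries of ova-treated rabbits among the 24 libraries of the series, and were chosen by their labels. All 6 animals were young New Zealand White rabbits and received 3 doses of 2500 ova. TSO DSS rabbits then drank 0.1% DSS in fennel tea for 5 days from day 26, and TSO Water rabbits drank the tea alone. Tissue was taken on day 35. The other 18 libraries were IEC of rabbits given the vehicle (Veh DSS and Veh Water) and lamina propria mononuclear cells (LPMC) of all 4 groups, and each rabbit gave both preparations. The 3 TSO DSS rabbits and 2 of the TSO Water rabbits were kept in room A, and the remaining TSO Water rabbit, replicate 2, in room B.

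The epithelium of the caecum is a single cell layer that keeps luminal bacteria away from the lamina propria beneath it, where most immune cells of the gut wall lie. DSS, a sulphated polysaccharide given by mouth, damages this layer, and leukocytes enter the mucosa and the epithelium during the colitis that follows. Trichuris larvae burrow into the epithelium of the caecum, so that the cells sampled here are also the ones that the worm meets. IEC were released from the tissue with EDTA, without a sort, and such a preparation also holds leukocytes that sit between epithelial cells or are shed from below. In RNA of a whole preparation, fewer cells of a type and less RNA per cell cannot be told apart.

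The TSO DSS libraries held 15588321, 23068280 and 17583059 reads and the TSO Water libraries 13847467, 18689997 and 13338835. The values deposited were reads times a factor of the library, from which whole reads were recovered. Of 17318 genes listed, 10230 had a mean of at least 10 reads over the 6 libraries and were tested with limma on log2(scaled reads + 1). On this scale, the fold change of a gene with few reads is understated. Across genes, which are not independent replicates, libraries correlated (Pearson's r of log2 levels) at 0.887 to 0.938 within TSO DSS, 0.921 to 0.941 within TSO Water and 0.878 to 0.915 between the groups. The genes carry Ensembl identifiers without symbols, so that defining markers of cell types could not be looked up. The preparation was instead checked with 241 genes that were higher in IEC than in LPMC of Veh Water rabbits, called IEC-enriched below (adjusted p under 0.05 by limma and a log2 difference above 2, 2.3% of the genes tested). They took 1.95% to 4.37% of the non-mitochondrial reads in the 6 IEC libraries and 0.281% to 0.457% in the 6 LPMC libraries of the same rabbits.

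DSS raised many more genes than it lowered in IEC of ova-treated rabbits. In total, 210 genes were higher in TSO DSS in comparison to TSO Water and 4 were lower, with limma, a p-value under 0.05 after Benjamini-Hochberg adjustment and a fold change above 2 in either direction. Over all genes tested this was 2.05% called higher and 0.0391% called lower. The last gene inside the threshold had an adjusted p of 0.0487 in limma and the first outside 0.0505. At an unadjusted p-value under 0.05 and the same fold change, 582 genes were higher and 88 lower. On scaled reads, none of the 214 called genes had values that overlapped between the groups. Over all genes tested, the 3 TSO DSS values lay above the 3 TSO Water values for 10.6% of the genes and below them for 6.23%. The median log2 fold change of all genes was -0.017.

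How many genes were called depended on single rabbits and on how the spread was estimated. Without TSO DSS replicate 1, 29 genes were called, and 516 passed at the unadjusted p-value. Without TSO Water replicate 2, which leaves only rabbits of room A, 118 genes were higher and 1 lower, and without TSO Water replicate 3, 125 were higher and 2 lower. When the spread was estimated over all 12 IEC libraries, 10 genes were called, all higher and all among the 210, while 676 passed at the unadjusted p-value. The quasi-likelihood test of edgeR on the recovered reads called 175 genes higher and 3 lower, 177 of them among the 214.

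**Figure D1:**
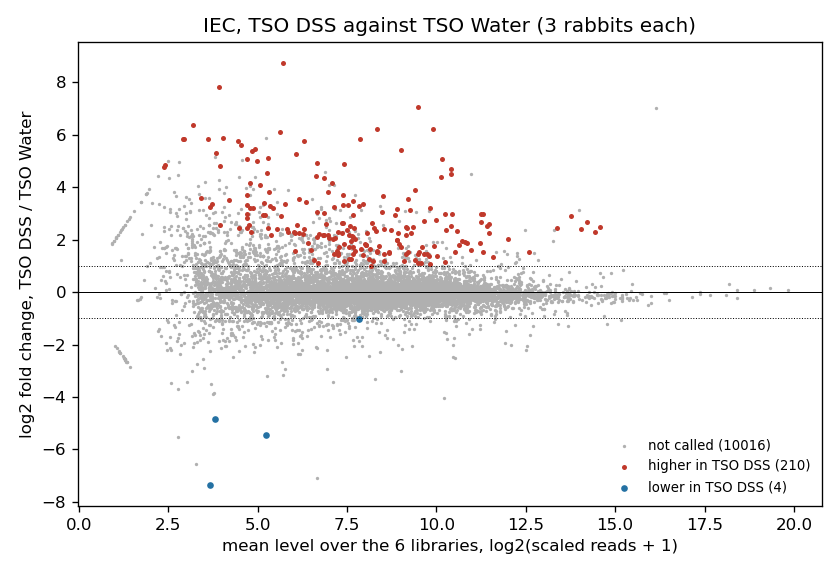
Log2 fold change of TSO DSS against TSO Water in IEC (vertical axis) for the 10230 genes tested, against the mean level over the 6 libraries as log2(scaled reads + 1) (horizontal axis); dotted lines mark a fold change of 2. The 210 genes called higher (red) are spread over low and high levels, and 4 genes were called lower (blue).

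The raised genes had a median log2 fold change of 2.43, with an interquartile range of 1.81 to 3.35 and a maximum of 8.72. The fitted change was above 4-fold for 145 of them and above 16-fold for 38. In 9 of the raised genes, all TSO Water libraries were at or under 3 reads, and 6 of these were listed at 0 in all 3, so that their fitted fold depends on the pseudocount. With these 9 genes set to a floor of 3 reads per TSO Water library, the median stayed at 2.43. With 9 of 210 genes altered, the median could hardly move. A typical raised gene went from 91.7 scaled reads in TSO Water to 484.2 in TSO DSS (medians over the 210 genes of the group means, for a library of 17012035 reads). Raised genes were found at all levels. With the tested genes cut into 4 equal bins by mean level, from low to high, the raised genes made up 2.5%, 2.7%, 1.49% and 1.52% of the bins.

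Over the raised genes as a whole, the 3 TSO DSS rabbits had similar medians. The choice of the genes partly sets this, since the test favours genes with a small spread within groups. Set against the mean of TSO Water, the median log2 difference over the 210 genes was 2.63, 2.39 and 2.32 in TSO DSS replicates 1, 2 and 3. Replicate 1 had the highest of the 3 values in 108 of the genes, and replicate 3 the lowest in 108. The median SD between rabbits, on the log2 scale, was 0.28 in TSO DSS and 0.36 in TSO Water for the raised genes, and 0.26 and 0.27 for all genes tested. Together, the raised genes took 4.9%, 4.65% and 3.91% of the non-mitochondrial reads in TSO DSS and 0.823%, 0.753% and 0.812% in TSO Water. These libraries chose the genes, so that the size of this gap is a description.

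Raised genes also held some of the abundant transcripts of the preparation. The 20 raised genes with the highest mean in TSO DSS had 6436 to 58208 scaled reads there, and together took 3.52%, 3.26% and 2.72% of the non-mitochondrial reads in TSO DSS against 0.516%, 0.46% and 0.521% in TSO Water. Of these 20 genes, 15 were LPMC-enriched (higher in LPMC than in IEC of Veh Water rabbits at an adjusted p under 0.05 in limma and a log2 difference above 2), as were 8.27% of all genes tested.

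The largest rise on the log2(scaled reads + 1) scale was that of ENSOCUG00000021775 on chromosome 1, a gene without a symbol in the files. It had 1737, 2605 and 342 reads in TSO DSS and 2, 4 and 0 reads in TSO Water. Every TSO DSS rabbit was far above every TSO Water rabbit, although replicate 3 was well below the other 2. The log2 fold change was 8.72 ± 0.80 (SE, n = 3 per group; adjusted p = 0.0064 in limma), and without TSO DSS replicate 1 the adjusted p was 0.052. Without ova the same gene had 379, 1554 and 215 reads in IEC of Veh DSS and 4, 0 and 1 in IEC of Veh Water (log2 fold change 7.98 ± 0.86, adjusted p = 0.071 in limma). In LPMC it had 64, 418 and 1 reads in TSO DSS and 14, 5 and 11 in TSO Water, where the groups overlapped.

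The next identifier by size of change, ENSOCUG00000029087 of the mitochondrial genome, had 230, 234 and 266 reads in TSO DSS and was listed at 0 in all 3 TSO Water libraries (adjusted p = 0.0035 in limma). It was also listed at 0 in 2 Veh Water and 3 Veh DSS libraries of IEC and in all LPMC libraries, and at 242 reads in the remaining Veh Water library. No fold is given for it, since such a 0 can be a failed estimate. It came before ENSOCUG00000021775 with a pseudocount of 0.1 and in the fits of edgeR and DESeq2. With the spread from all 12 IEC libraries the adjusted p was 0.12. Of the genes tested, 113 were listed at 0 in at least 1 of the 6 libraries and at 100 reads or more in another. They include 9 of the raised and 1 of the lowered genes, and with all 113 left out 203 genes were higher and 3 lower.

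The next largest rise was that of a chromosome 13 transcript, at 12892, 30417 and 1838 reads in TSO DSS and 33, 147 and 31 in TSO Water (log2 fold change 7.08 ± 0.93, adjusted p = 0.018 in limma). In Veh rabbits it had 1659, 144111 and 29411 reads in IEC with DSS and 457, 101 and 19 without, so that its highest value among the IEC libraries was in a Veh DSS rabbit. In LPMC of TSO rabbits it had 1617, 25025 and 118 reads with DSS and 52, 39 and 14 without. In both preparations, TSO DSS replicate 2 was the highest and replicate 3 the lowest.

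A gene on chromosome 8, by contrast, was abundant in LPMC with and without DSS. In IEC it had 4343, 4197 and 1552 reads in TSO DSS and 38, 26 and 33 in TSO Water (log2 fold change 6.24 ± 0.34, adjusted p = 0.0026 in limma). In LPMC of the same rabbits it had 3644, 3794 and 1223 reads in TSO DSS and 6652, 2361 and 5118 in TSO Water, where the groups overlapped.

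The 4 lowered genes were few and mostly low. ENSOCUG00000014009, a gene of chromosome 12, stood at 1, 14 and 7 reads in TSO DSS and 384, 326 and 87 in TSO Water (log2 fold change -5.45 ± 0.79, adjusted p = 0.025 in limma). All TSO DSS rabbits were below all TSO Water rabbits. Its call was lost in 6 of 20 alternatives (adjusted p 0.056 to 0.1 in limma), among them those without TSO DSS replicate 1 or 3 and without TSO Water replicate 1 or 2. The gene had 197, 11 and 22 reads in IEC of Veh DSS and 1169, 683 and 328 in IEC of Veh Water, and in LPMC 1, 56 and 0 in TSO DSS and 1079, 171 and 99 in TSO Water. The groups did not overlap in either of these comparisons, and neither passed the threshold in limma (adjusted p = 0.54 and 0.1).

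ENSOCUG00000019747 on chromosome 13 was listed at 0 in all TSO DSS libraries and at 107, 248 and 114 reads in TSO Water (adjusted p = 0.004 in limma). It was also listed at 0 in 2 Veh Water and 2 Veh DSS libraries of IEC, and with the spread from all 12 IEC libraries the adjusted p was 0.21. Another gene, from chromosome 14, was at 1, 12 and 0 reads in TSO DSS and 72, 88 and 44 in TSO Water (log2 fold change -4.85 ± 0.85, adjusted p = 0.045 in limma). In LPMC it had 2, 6 and 6 reads in TSO DSS and 250, 244 and 167 in TSO Water, and it was the only one of the 4 to be called lower there. The remaining one, on chromosome 12, had 149, 253 and 135 reads against 322, 293 and 243 (log2 fold change -1.01 ± 0.14, adjusted p = 0.022 in limma). These reads overlap between the groups, while the scaled values did not.

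The raised genes were then compared with genes of the other cell preparation. LPMC-enriched genes were defined in Veh Water rabbits, whose libraries did not enter the fit of TSO DSS against TSO Water on its 6 libraries: 1060 genes were higher in LPMC than in IEC at an adjusted p under 0.05 in limma and a log2 difference above 2, which is 10.1% of the genes tested. Of these, 846 were tested in IEC of TSO rabbits. In total, 114 of them (13.5%) were raised by DSS and 0 were lowered, against 2.05% raised among all genes tested. Their median log2 fold change was 0.7, and 75.7% were above 0, against a median of -0.017 and 47.3% for all genes. The 3 TSO DSS values lay above the 3 TSO Water values in 288 of the 846 (34%, against 10.6% of all genes) and below them in 10 (1.18%, against 6.23%). Without TSO DSS replicate 1, 22 of 845 (2.6%) were raised and 0 lowered, against 0.264% of all genes raised in that fit. In the other fits that left out a library, 68 to 99 were raised (8.23% to 11.5%, against 1.16% to 1.74% of all genes). The filter on mean reads also admits genes of the list through 1 library where they are high. Without TSO DSS replicate 2, 756 of the list were tested, with a median of 0.505, against 838 to 860 tested without any other library. The counts, shares and median of the 846 thus depend in part on that library.

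These LPMC-enriched transcripts took 7.23%, 7.63% and 5.08% of the non-mitochondrial reads of IEC in TSO DSS and 2.59%, 3.17% and 3.91% in TSO Water. The groups did not overlap, and the means were 6.65% ± 1.38 and 3.22% ± 0.659 (SD, n = 3 each). An exact two-sided permutation test gave p = 0.1, which is the smallest that 3 against 3 libraries allow. The sum includes the 114 raised genes, which these same libraries chose. Without them the share was 3.66%, 4.39% and 2.3% in TSO DSS and 2.05%, 2.66% and 3.35% in TSO Water, where the groups overlapped; this trimmed list was not tested. IEC of Veh rabbits held 3.52%, 9.89% and 6.09% with DSS and 2.97%, 2.63% and 2.14% without, where the list was itself chosen for a low level in the Veh Water libraries of IEC, and LPMC libraries of TSO rabbits held 12.1% to 31.8%. With the 244 genes that had a log2 difference above 4, the IEC libraries of TSO DSS held 1.44%, 0.977% and 0.519% and those of TSO Water 0.246%, 0.628% and 0.136%, where the groups overlapped (exact permutation p = 0.2). The part that a different number of lamina propria cells in the preparations had in the raised genes was not tested.

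Rabbits differed in the level of the LPMC-enriched list. The median log2 difference to the mean of TSO Water was 0.762 in TSO DSS replicate 1, 1.49 in replicate 2 and 0.246 in replicate 3, and the TSO Water libraries themselves lay at -0.134, 0.299 and -0.208. Without TSO DSS replicate 2, 68 of the 756 genes of the list then tested (8.99%) were raised and 11 lowered. Over all 10037 genes of that fit, 121 (1.21%) were higher and 28 lower. The genes called lower with DSS in LPMC also differed between rabbits: the 363 of them tested in IEC stood at a median of -0.504, 1.26 and -0.747 in TSO DSS replicates 1, 2 and 3.

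Conversely, most of the raised genes were held at a higher level by LPMC than by IEC. Of the 210, 194 were tested between LPMC and IEC of Veh Water rabbits, and 184 were higher in LPMC, with a median log2 difference of 2.26 against 0.054 for all genes. In total, 114 were LPMC-enriched, 80 were tested and not LPMC-enriched, and 16 could not be tested there. In IEC of TSO rabbits, the median log2 fold change was 2.57 for the 114 and 1.95 for the 80.

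IEC-enriched genes had a median below 0. Of the 237 tested, 0 were raised and 0 lowered by limma, against 2.05% and 0.0391% of all genes, and 0 were lowered in 5 of 6 fits that left out a library, with 1 lowered without TSO DSS replicate 2. Their median log2 fold change was -0.381, and 27.4% were above 0. The 3 TSO DSS values lay below the 3 TSO Water values in 39 genes (16.5%, against 6.23% of all genes) and above them in 2 (0.844%, against 10.6%). The medians of the TSO DSS libraries were -0.438, -0.158 and -0.684, and those of TSO Water 0.309, -0.0935 and -0.249, so that the groups overlapped. The share of reads of IEC-enriched genes was 4.37%, 2.88% and 1.95% in TSO DSS and 3.86%, 3.75% and 2.77% in TSO Water (exact permutation p = 0.7).

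**Figure D2:**
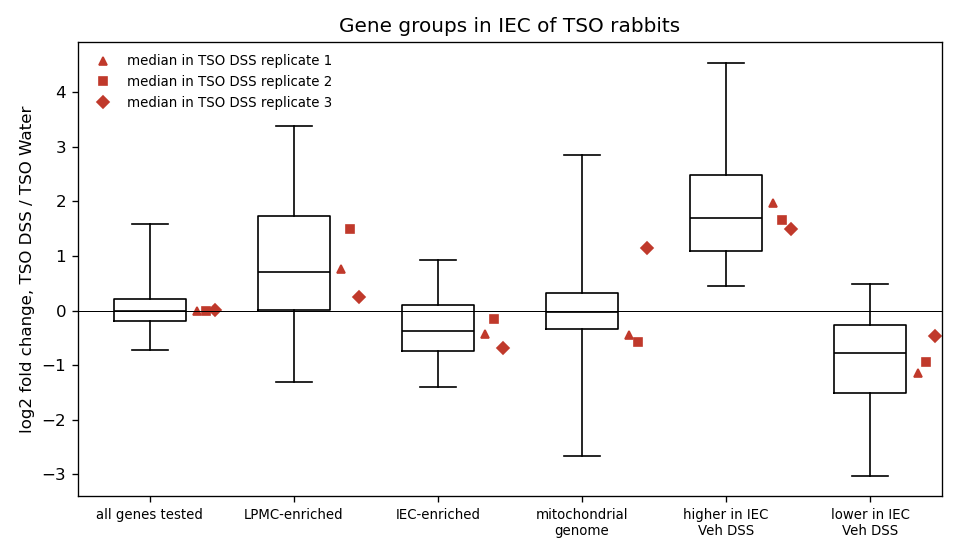
Log2 fold change of TSO DSS against TSO Water in IEC (vertical axis) for 6 gene groups; boxes give the median and quartiles over genes, whiskers the 5th to 95th percentile, and red symbols the median of each TSO DSS library against the mean of TSO Water. LPMC-enriched genes have a median of 0.7 and IEC-enriched genes of -0.381, and TSO DSS replicate 2 is highest in both.

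Transcripts of the mitochondrial genome, which encode subunits of the respiratory chain and the RNAs that translate them, varied between rabbits more than with DSS. They took 20.9%, 21.2% and 46.5% of all reads in TSO DSS and 17.4%, 41.7% and 32% in TSO Water (exact permutation p = 1). Of 33 mitochondrial genes tested, 1 (3.03%) was raised, the gene described above, and 0 were lowered by limma, which is near the 2.05% and 0.0391% of all genes. The median log2 fold change was -0.0256, and library medians ranged from -0.578 to 1.15 in TSO DSS and from -1.43 to 1.17 in TSO Water. With mitochondrial genes left out of scaling and test, 204 genes were higher and 4 lower.

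The effect of DSS without ova was measured in other rabbits, which share no library with this comparison. In IEC of Veh DSS against Veh Water, limma called 2 genes higher and 5 lower (0.0192% and 0.048% of 10412 genes tested). At an unadjusted p-value under 0.05 and the same fold change, 507 were higher and 95 lower (4.87% and 0.912%). Of the 507, 495 were tested in TSO rabbits: 173 (34.9%, against 2.05% of all genes) were raised there, 0 were lowered, and 386 (78%, against 10.6%) had all TSO DSS values above all TSO Water values. Without TSO DSS replicate 1, 25 of 492 (5.08%) were raised, against 0.264% of all genes (27) in that fit. Their median log2 fold change in TSO rabbits was 1.69, with 98.4% above 0. Of the 95, 87 were tested in TSO rabbits, where 2 (2.3%, against 0.0391% of all genes) were lowered, 0 were raised, and the median was -0.786. Without single libraries, 0 to 7 of them were lowered and the median lay between -1.24, without TSO Water replicate 1, and -0.577, without TSO Water replicate 2.

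Conversely, 207 of the 210 raised genes were tested in Veh rabbits, and 204 of them had a log2 fold change above 0, against 44.4% of all genes tested in both. The median was 2.6, next to 2.43 in TSO rabbits, which chose the genes. Of the 207, 173 passed the unadjusted p-value and 1 the adjusted one. The Veh DSS rabbits were not alike: the median log2 difference to Veh Water over these genes was 0.946 in Veh DSS replicate 1, 3.77 in replicate 2 and 2.86 in replicate 3. The Veh libraries did not choose the genes, so this spread cannot be set against that of the TSO DSS rabbits. The raised genes took 1.14% of the non-mitochondrial reads in Veh DSS replicate 1, 9.85% in replicate 2 and 4.44% in replicate 3, against 0.462% to 0.752% in Veh Water. Replicate 2 was thus above the TSO DSS libraries, replicate 3 within their range and replicate 1 below it. Without Veh DSS replicate 1, limma called 263 of 10369 genes higher and 47 lower in Veh rabbits, while the fits without any other single library called 0 to 6 genes. Of the 263, 259 were tested in TSO rabbits. By this one fit, 138 of the 259 (53.3%, against 2.05% of all genes) were raised there too, which is 65.7% of the 210.

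Whether ova changed the response to DSS was tested with an interaction term on the 12 IEC libraries. With limma, 0 of 10344 genes (0%) passed an adjusted p under 0.05, and 118 passed an unadjusted p under 0.05 with a more positive response to DSS in TSO rabbits for 63 and in Veh rabbits for 55. The quasi-likelihood test of edgeR also called 0 genes, with 132 at the unadjusted p. A count of 0 does not show that the responses were alike. In simulated libraries of these sizes, the interaction test called 120 of 200 genes whose responses differed 4-fold. Recovery was not worked out separately for genes with few reads, so that this share need not hold for them. The rise of ENSOCUG00000021775 had an interaction p of 0.46 before adjustment and an adjusted p of 1 in limma. Without Veh DSS replicate 1, 0 genes passed the adjusted threshold and 426 the unadjusted one.

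**Figure D3:**
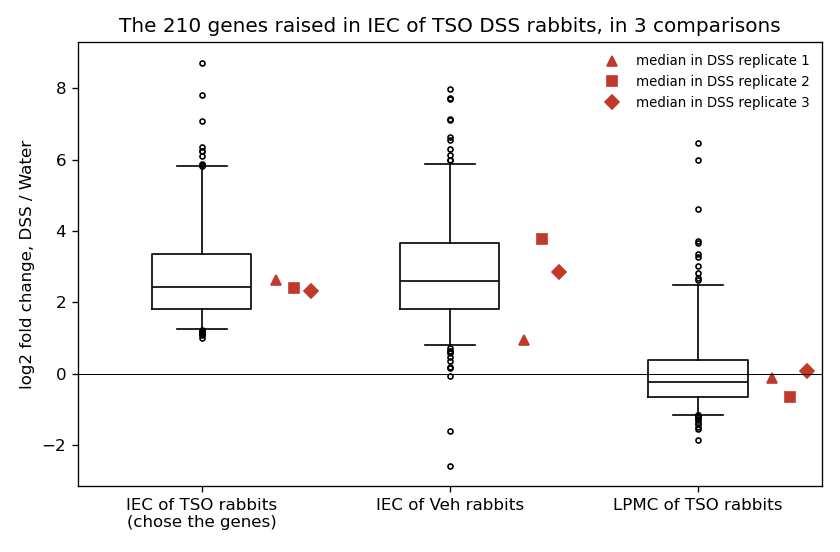
Log2 fold change of DSS against Water (vertical axis) for the genes raised in IEC of TSO DSS rabbits, in the comparison that chose them, in IEC of Veh rabbits and in LPMC of TSO rabbits; boxes give the median and quartiles over genes, whiskers the 5th to 95th percentile, circles the genes beyond, and red symbols the median of each DSS library against the mean of its Water group. The medians are 2.43, 2.6 and -0.236, and Veh DSS replicate 1 lies well below the other Veh DSS libraries.

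LPMC of the same TSO rabbits responded to DSS in another way. The LPMC libraries held 8281576, 13831167 and 3685522 reads in TSO DSS and 14498970, 10697869 and 12631688 in TSO Water. In LPMC, 18 genes were higher and 393 lower in TSO DSS by limma (0.177% and 3.87% of 10143 genes tested). This count, too, rested on single rabbits, from 24 genes without TSO Water replicate 2 of the LPMC libraries to 1089 without TSO DSS replicate 2. Without TSO DSS replicate 3, the library with the fewest reads, 426 genes were called, 412 of them lower. Of the 210 genes raised in IEC, 205 were tested in LPMC, where 1 was raised, 4 were lowered, and the median log2 fold change was -0.236, with -0.139, -0.65 and 0.0728 in the 3 TSO DSS libraries. The LPMC-enriched genes, which had a median of 0.7 in IEC, had a median of -1.64 in LPMC, where 284 of 1035 were lowered and 0 raised. In LPMC the IEC-enriched genes had a median of 0.556, with 3 of 142 raised and 0 lowered.

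The difference between the preparations was then tested itself, with an interaction term and the 12 libraries of TSO rabbits. In total, 354 genes (3.44% of 10284) differed in their response to DSS at an adjusted p under 0.05 in limma, 337 with a more positive change in IEC and 17 with a more positive change in LPMC. The edgeR quasi-likelihood test called 358, and with the rabbit as a block, which uses that both preparations came from the same animals, 249 were called (246 and 3), of which 191 were among the 354. Leaving out single libraries gave 179 to 469 genes. Of the 210 raised genes, 135 (64.3%) were among the 337, which rests in part on the IEC libraries that chose them. The 337 also held 94 genes (27.9%) called lower in LPMC. Some of the 337 had too few reads in IEC to be tested there. For these, a fall in LPMC beside a floor in IEC counts as a more positive change in IEC. Of the 337, 209 (62%) were LPMC-enriched and 0 were IEC-enriched, against 9.57% and 2.22% of all genes in this test. LPMC-enriched genes are low in IEC by definition, so that falls in LPMC beside a low level in IEC set this share in part. Of the 17, 0 were LPMC-enriched and 3 (17.6%) IEC-enriched.

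**Figure D4:**
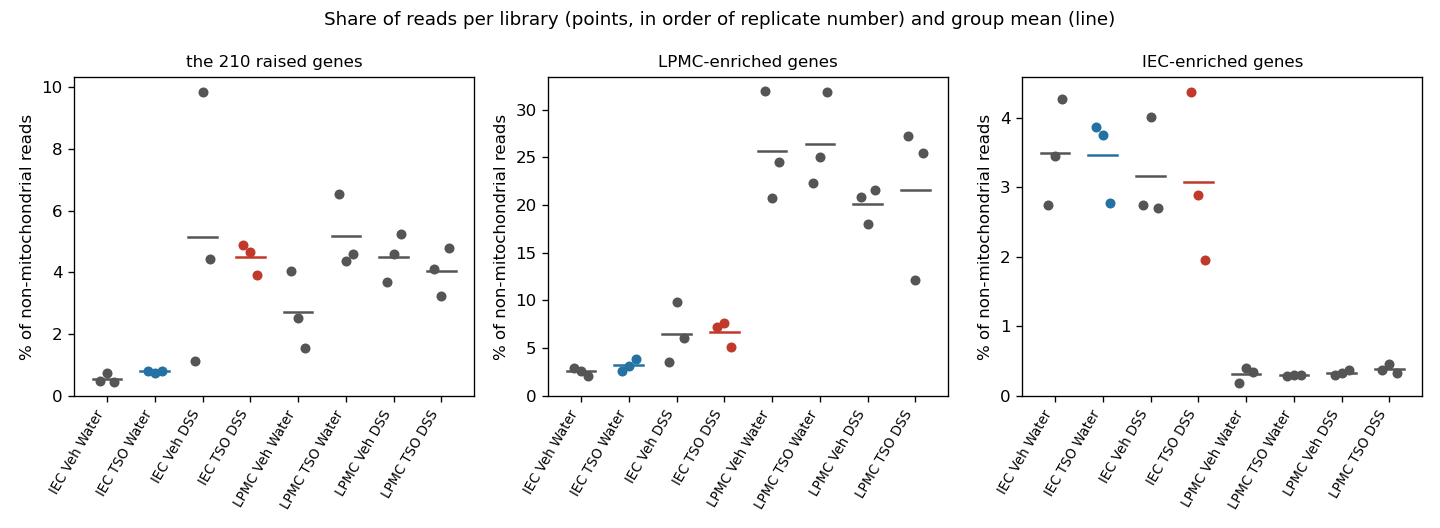
Percent of non-mitochondrial reads taken by the 210 raised genes, the LPMC-enriched genes and the IEC-enriched genes (vertical axes) in each of the 24 libraries, by preparation and group (horizontal axes), with points in the order of the replicate number and lines at group means. The IEC TSO DSS libraries (red) hold 3.91% to 4.9% for the raised genes, above the IEC TSO Water libraries (blue, 0.753% to 0.823%) and within the range of the LPMC libraries.

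The raised genes were spread over nearly all chromosomes of the rabbit. Chromosome 12 held the most, 27 of 701 genes tested (3.85%), followed by chromosome 13 with 26 of 1027 (2.53%) and chromosome 1 with 23 of 897 (2.56%). The highest share was on chromosome 8, with 14 of 355 (3.94%). Chromosome 5 held 0 of 279 and chromosome 18 held 1 of 350 (0.286%), against 2.05% of all genes tested. LPMC-enriched genes made up 12% of the genes tested on chromosome 12, 13.5% on chromosome 8, 4.66% on chromosome 5 and 6.29% on chromosome 18. The order of the chromosomes was not the same for both: chromosome 6 had 3.91% LPMC-enriched and 1.68% raised genes, chromosome X 4.34% and 1.53%, and chromosome 3 9.07% and 1.42%. Median fold changes of whole chromosomes stayed near 0, between -0.1 on chromosome 10 and -0.002 on chromosome 14. Differences between chromosomes were not tested.

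**Figure D5:**
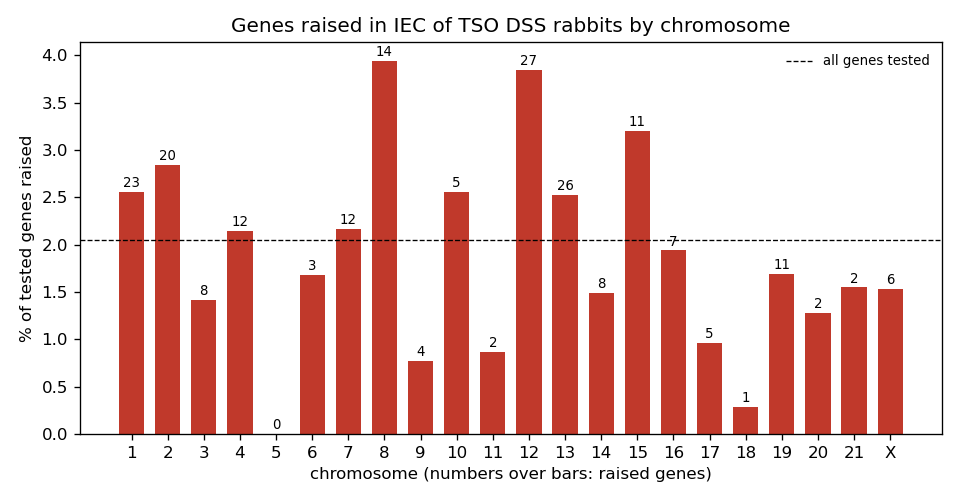
Percent of tested genes raised in IEC of TSO DSS rabbits (vertical axis) on each chromosome with at least 50 tested genes (horizontal axis); numbers over the bars are raised genes, and the dashed line is the 2.05% of all genes tested. Chromosomes 8 and 12 hold the highest shares, and chromosome 5 holds no raised gene.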

How the data were processed

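Libraries were poly(A)-selected and unstranded; the labels describe single-end reads and the paper's methods paired inserts. The submitters' processing notes name FastQC and the build OryCun2.0, and chromosomes are as the tables give them. The paper's methods name the BetterBunny annotation for the Ensembl identifiers, which was not used here. Aligner and counter are not given in the sources used here. The authors deposited 1 table per treated group and preparation against Veh Water, with a normalized signal per gene and library (reads times 1 factor per library and table). They also hold the authors' log2 ratios, p-values, FDR and clusters, which were not used. The TSO DSS and TSO Water libraries lie in different tables, so whole reads were worked out from the smallest step of each column (100% of values under 1000 within 0.1 of a whole number) and the libraries of each comparison were scaled together by TMM (edgeR 4.0.16) to their mean size.

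Tests used limma 3.58.1 (trend, not robust, two-sided) in R 4.3.3 on log2(scaled reads + 1), on the libraries of the groups compared, without a block, with Benjamini-Hochberg adjustment over all tested genes. Interactions were called without a fold threshold. Alternatives included the count tests of edgeR and DESeq2 1.42.0 on the recovered reads, other filters and scalings, and leaving out each library; leaving out genes listed at 0 was added after seeing the data. In simulated libraries of these sizes, 182 of 200 genes changed 4-fold were called in IEC of TSO rabbits. There were 12 false calls among 10065 genes and 0 where no gene was changed. The share called was not worked out separately for genes with few reads and need not hold for them.

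Same-numbered libraries of the 2 groups are different rabbits. The 2 preparations of a rabbit are pairs by design, and their deviations from group means correlated across genes between -0.11 and 0.21. Rooms come from the sample sheet of the paper's supplement. A name table of 38822 genes (assembly mOryCun1.1) matched 0 identifiers, so gene lists by symbol and sequences were not used here. Identifiers are given for the 2 genes with the largest rise and the 2 with the largest fall, out of the called genes without overlap of the groups; other single genes were chosen after their values were seen. The members and lists were chosen with earlier results of these data known.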

Additional observations from a re-analysis of the deposited data

Results flagged for a closer look

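The response to DSS differed between the 2 cell preparations of ova-treated rabbits for 354 genes, by the interaction test of limma over 12 libraries (3 per group). For 337 of them the change was more positive in IEC, and for 17 in LPMC. The 337 include genes that fell in LPMC and had too few reads in IEC to be tested there. Both preparations came from the same rabbits, and with the rabbit as a block 249 genes were called, 191 of them among the 354. ENSOCUG00000029087 was among the 354, with a fitted log2 difference of 7.54 (adjusted p = 0.002 in limma). It was listed at 0 in all LPMC libraries and in all TSO Water libraries of IEC, where a 0 can be a failed estimate, so that the fitted value depends on the pseudocount and is neither a measured fold nor a bound. The LPMC libraries hold no response of this gene to compare, so that the test cannot show a difference between the preparations for it. Groups of 3 were not searched for outlying libraries.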

How the results depend on the processing

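Each of the 4 genes given by identifier kept its direction in the 18 to 20 alternatives in which it was tested. They were chosen as large changes without overlap of the groups, so that these alternatives could hardly reverse them. For TSO DSS against TSO Water in IEC (214 genes), 10 genes were called with the spread from all 12 IEC libraries and 112 with a replicate block. The likelihood ratio test of edgeR called 454 (425 higher and 29 lower) and DESeq2 465 (430 and 35). At the unadjusted p 670 were called, and leaving out single libraries gave 29 to 187. A pseudocount of 0.1, other filters, other scalings, thinning to the smallest library and the edgeR quasi-likelihood test gave 178 to 212. The interaction of TSO with DSS in IEC called 0 genes with a replicate block, 1 with a pseudocount of 0.1 and 118 at the unadjusted p, and 0 to 1 without single libraries. The interaction of preparation with DSS called 249 with the rabbit as replicate block, 1796 at the unadjusted p and 179 to 469 without single libraries. DSS in Veh rabbits called 2 genes by edgeR quasi-likelihood and 0 to 310 without single libraries; DSS in LPMC of TSO rabbits called 24 to 1089 without single libraries. The gap in the share of LPMC-enriched genes was 3.42 percentage points (2.93 to 4.21 without single libraries), 0.641 with a log2 difference above 4 and, added after seeing the data, 0.758 without the raised genes, where the groups overlapped. The mitochondrial gap was -0.842 points (-9.33 to 4.83). Medians without single libraries were 0.505 to 1.06 for LPMC-enriched and -0.538 to -0.201 for IEC-enriched genes. Same-numbered libraries are different rabbits: the deviations from group means correlated at -0.021, -0.022 and 0.2 across genes, below the 0.25 of a pair with unlike numbers. The causes were not tested.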

Other observations

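Some genes took values in steps. ENSOCUG00000019747, listed at 0 in all TSO DSS libraries of IEC, had 107, 248 and 114 reads in TSO Water, 242, 0 and 0 in Veh Water and 233, 0 and 0 in Veh DSS, and its LPMC values were 0, 0 and 120 in Veh Water, 0, 117 and 227 in Veh DSS, 121, 0 and 121 in TSO DSS and 224, 0 and 122 in TSO Water. All 24 values are thus 0, between 107 and 122, or between 224 and 248. A raised gene on chromosome 13, chosen after its values were seen, was listed at 0 in all TSO Water libraries of IEC and had 41, 84 and 68 reads in TSO DSS, 22, 82 and 40 in Veh Water and 67, 60 and 40 in Veh DSS. This gene had the lowest p of the interaction of TSO with DSS in IEC (adjusted p = 0.21 in limma).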
